A study of Mus musculus with 8 samples.

Results

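The genes described here are 10 regulators of transcription and RNA stability that hold lymphocytes at rest and keep T cells in the naive state: Tcf7, Lef1, Bach2, Satb1, Foxp1, Foxo1, Foxo3, Ets1, Tob1 and Btg1. They were chosen by symbol, and a gene's level was read from the probe sets that the platform's probe-to-gene table assigns to that symbol alone. On this rule 9 of the 10 were measured, among 18193 genes with a named probe set in the whole data set, through 34 probe sets. Tcf7 has no probe set in the table used and was not analysed here.

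The samples were 8 one-colour arrays of CD8 T cells from spleens of C57BL/6 mice, 2 arrays in each of 4 groups, all selected with magnetic beads. Every group spent 18 hours with bone marrow dendritic cells, 10 T cells to each, and the dendritic cells were then taken out by their CD11c. WT non-pulsed cells met dendritic cells without peptide, and WT N4 cells met dendritic cells carrying N4, the ovalbumin peptide SIINFEKL. PKC theta KO N4 cells lack the kinase PKC theta, encoded by Prkcq, and p50 cRel DKO N4 cells lack the NF-kB subunits p50 and cRel; both met N4-loaded dendritic cells, and neither knockout has a non-pulsed group. The antigen receptor of the cells, the age of the mice and whether the deletions covered all cells of the animal are not given in the labels. The labels do not say that arrays in 1 group came from separate mice or cultures, so p-values reflect the spread between these samples alone, and that spread may be technical.

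A resting naive T cell is kept so by active transcription. Foxo factors sit in the nucleus and drive homing and survival genes until antigen receptor signalling through PI3K and Akt moves them to the cytoplasm, while Tcf1 (the product of Tcf7), Lef1, Ets1, Bach2, Satb1 and Foxp1 shape the chromatin and gene expression of the naive cell. Tob1 and Btg1 are antiproliferative proteins of 1 family that bring the CCR4-NOT deadenylase to messenger RNAs. On antigen recognition these brakes are known to be released as the cell grows and divides.

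The RefSeq promoters (assembly GRCm38.p6, 250 bases before to 50 after a start site) of 3 regulators are shown. These are the regulators with an entry whose every tested probe set passed as lower with N4 (limma adjusted p under 0.05). Capitals mark matches, on either strand, to the letters of 6 motifs. Btg1 lies at chr10:96616751-96617050 on the plus strand, Lef1 (the most upstream of its 4 start sites) at chr3:131110047-131110346 on the plus strand, and Foxo1 at chr3:52268087-52268386 on the plus strand.
Btg1: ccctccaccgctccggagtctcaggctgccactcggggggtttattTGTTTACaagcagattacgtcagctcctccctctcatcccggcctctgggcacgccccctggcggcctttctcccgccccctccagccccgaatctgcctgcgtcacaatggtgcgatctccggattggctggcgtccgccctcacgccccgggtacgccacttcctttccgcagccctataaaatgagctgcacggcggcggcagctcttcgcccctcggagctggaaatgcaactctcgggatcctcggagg
Lef1: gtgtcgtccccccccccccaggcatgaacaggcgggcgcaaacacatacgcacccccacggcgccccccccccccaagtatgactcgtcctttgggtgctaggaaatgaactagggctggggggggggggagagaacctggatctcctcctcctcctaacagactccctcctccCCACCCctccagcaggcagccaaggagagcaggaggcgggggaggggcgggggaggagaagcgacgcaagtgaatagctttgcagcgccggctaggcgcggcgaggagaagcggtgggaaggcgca
Foxo1: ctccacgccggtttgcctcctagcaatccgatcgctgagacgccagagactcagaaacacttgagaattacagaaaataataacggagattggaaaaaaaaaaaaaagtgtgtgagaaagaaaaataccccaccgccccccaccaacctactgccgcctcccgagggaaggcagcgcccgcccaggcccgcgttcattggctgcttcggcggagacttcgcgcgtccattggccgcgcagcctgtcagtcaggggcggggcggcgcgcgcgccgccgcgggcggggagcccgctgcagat
Btg1 held the Foxo motif GTAAACA in its reverse form TGTTTAC, which starts 204 bases before the start site. The Lef1 promoter held the Klf motif CCACCC 76 bases before the start site, and the Foxo1 promoter held none of the 6. Ets1 has no entry in the promoter table. Over the 17 promoters of the 8 measured regulators with an entry, GTAAACA was found in 1, the Ets motif CCGGAAG in 1 (Bach2) and CCACCC in 9, from Lef1, Foxp1, Tob1 and Satb1. Windows of neighbouring start sites overlap, and a Lef1 site and a Satb1 site of CCACCC were each counted in more than 1 of these promoters. The Tcf/Lef motif CTTTGAT, the AP-1 and Bach motif TGANTCA and the NF-kB consensus motif were found in none. Of all 32851 promoters of the same length, 3.65% held GTAAACA, 3.73% CTTTGAT, 8.86% CCGGAAG, 7.81% TGANTCA, 31.5% CCACCC and 1.63% the NF-kB motif. These matches describe letters only.

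The median deposited signal of an array lay between 33.6 and 70.3, and across genes the pairs of arrays correlated at a Pearson's r of 0.977 to 0.987. The number of arrays limits the precision. The T cell gene Cd3d had a signal of 9342 to 13164 and Cd8b1 of 5568 to 10280 on the 8 arrays, so the labelled cell type was seen in each group. Rel, the gene of cRel, fell by 3.62 from WT N4 to p50 cRel DKO N4 (log2 scale, limma adjusted p = 0.000984). Prkcq was 10.88 ± 0.18 in PKC theta KO N4 and 11.54 ± 0.28 in WT N4 (SD, n = 2), a difference of -0.66 that did not pass; whether its probe set reads the deleted exons is unstated in the labels, so it does not check that label. Xist, made from the inactive X chromosome, had a signal of 20.3 and 84.7 in WT N4, 50.2 and 3638 in WT non-pulsed and 4923 to 6050 in the knockout groups. The Y-linked genes Eif2s3y (-4.88), Kdm5d (-4.18) and Uty (-3.60) were lower in PKC theta KO N4 than in WT N4 and were the 3 genes of all tested that passed there. They were also lower in each knockout than in WT non-pulsed cells, and in p50 cRel DKO N4 than in WT N4. Genotype and a sex-linked difference between the mice therefore cannot be told apart wherever a knockout is set against WT N4 or WT non-pulsed. Xist was also higher on WT non-pulsed replicate 2 (3638) than on both WT N4 arrays, though none of the 4 sex-linked genes measured passed between these groups. The part of a sex-linked difference in the wild-type comparison was not tested.

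The first comparison asks how peptide changed the naive-state regulators in wild-type cells. With N4, Lef1, Btg1, Foxo1 and Ets1 fell and Satb1 rose, while Bach2, Foxp1, Foxo3 and Tob1 did not pass the test. The falls were 1.70-fold to 2.44-fold and the rise 1.90-fold. Levels below are log2(deposited signal + 16) unless called signals, for a gene's probe set with the highest mean, and a gene passed when its limma p, adjusted by Benjamini-Hochberg over 12520 genes, was under 0.05. By that rule 4 of the 9 measured regulators were lower and 1 was higher, where 23.5% of all genes tested were lower, 17.2% higher and 40.7% past the test in either direction. The median difference of the 9 was -0.74, and that of all genes was -0.10.

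**Figure D1:**
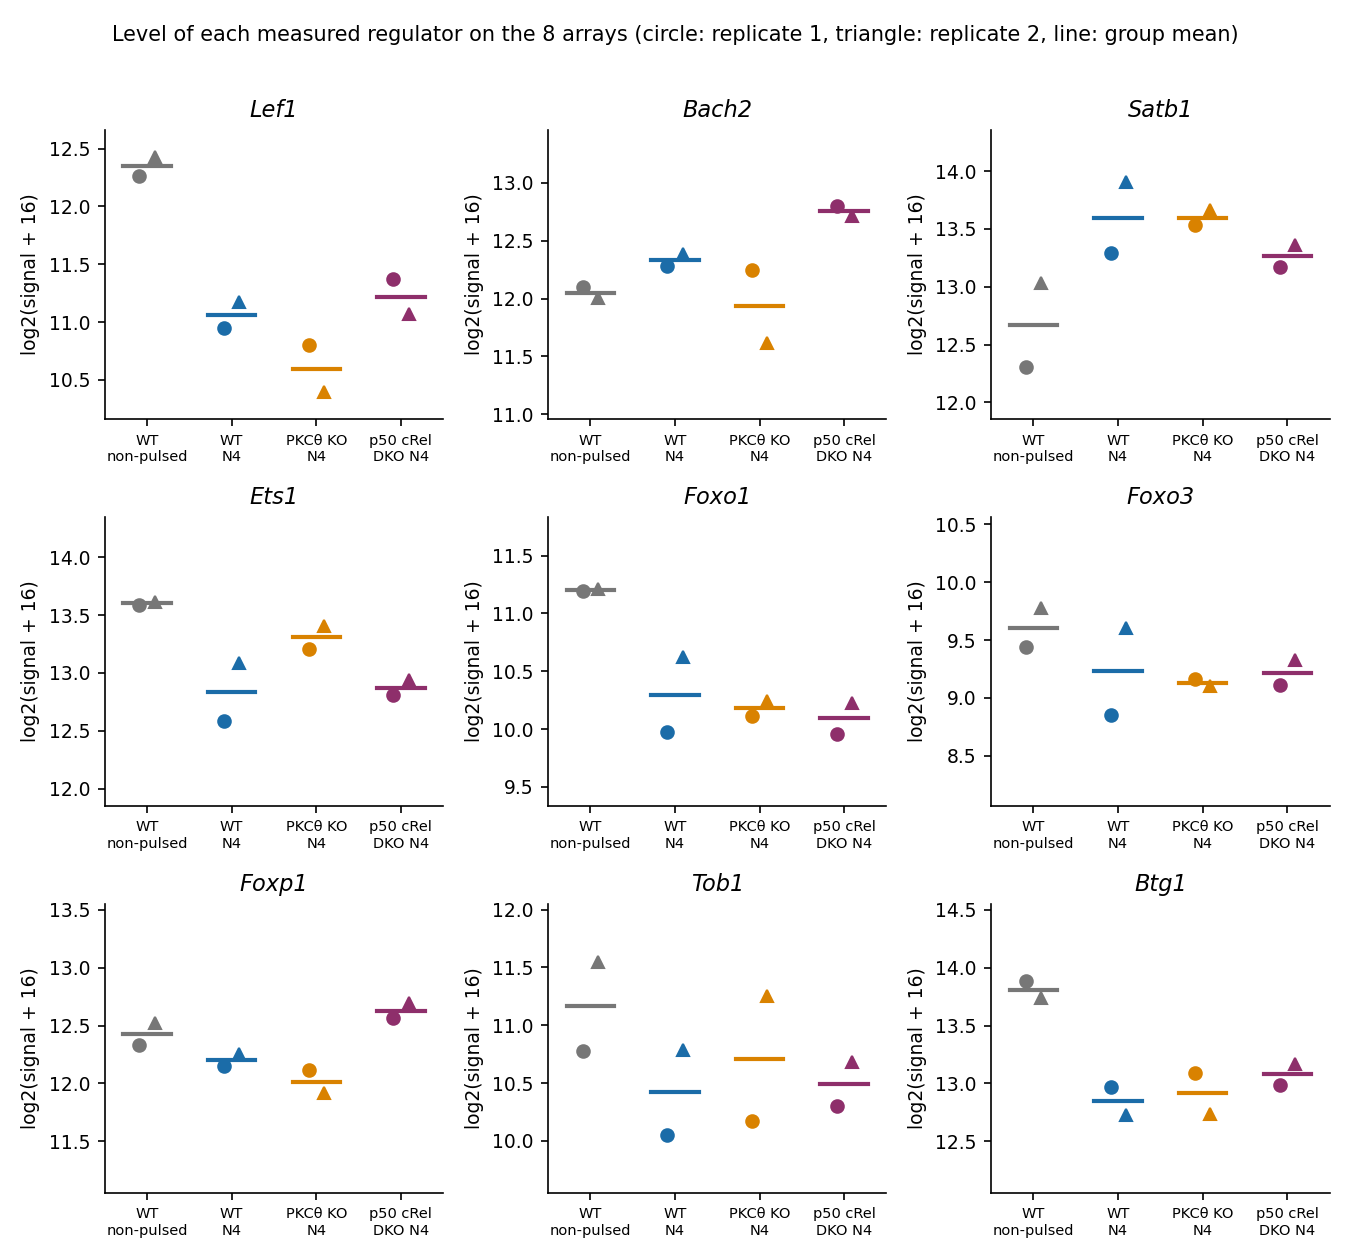
Level of each measured regulator, log2(signal + 16), on the 8 arrays in 4 groups; circles are replicate 1, triangles replicate 2 and lines group means, and each panel has its own range. For Lef1, Btg1 and Foxo1 both WT non-pulsed arrays lie above all 6 arrays with N4, and for Satb1 both lie below them.

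Lef1, an HMG-box partner of Tcf1 in T cell identity and memory, measured 12.26 and 12.43 on the WT non-pulsed arrays, 10.95 and 11.17 in WT N4, 10.80 and 10.40 in PKC theta KO N4 and 11.37 and 11.07 in p50 cRel DKO N4. Both non-pulsed arrays were above every array with N4. The fall in wild-type cells was 1.29 (SE 0.18; 95% interval -1.71 to -0.87; 2.44-fold; limma adjusted p = 0.000773). Among all genes, 12.7% had a difference below that of Lef1.

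Btg1, which links the CCR4-NOT deadenylase to transcripts in resting lymphocytes, measured 13.88 and 13.74 in WT non-pulsed cells, 12.97 and 12.73 in WT N4, 13.09 and 12.74 in PKC theta KO N4 and 12.99 and 13.17 in p50 cRel DKO N4. The non-pulsed arrays stood apart from the other 6, which lay between 12.73 and 13.17. Btg1 fell by 0.97 in WT N4 cells (SE 0.16; 95% interval -1.32 to -0.61; 1.95-fold; limma adjusted p = 0.00146). Its relative Tob1 was 10.78 and 11.55 in WT non-pulsed, 10.05 and 10.79 in WT N4, 10.17 and 11.26 in PKC theta KO N4 and 10.30 and 10.69 in p50 cRel DKO N4. In each group the array numbered 2 was the higher, and the 2 wild-type groups overlapped. The Tob1 difference, -0.74 (SE 0.40; 95% interval -1.65 to 0.17), did not pass (limma adjusted p = 0.178).

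Of the forkhead factors, Foxo1, which drives Il7r and the homing genes of naive T cells, measured 11.20 and 11.21 in WT non-pulsed, 9.97 and 10.62 in WT N4, 10.11 and 10.25 in PKC theta KO N4 and 9.96 and 10.23 in p50 cRel DKO N4. The non-pulsed arrays lay close together and above the rest, and the WT N4 arrays were the most spread of the 4 groups. Foxo1 fell by 0.91 (SE 0.22; 95% interval -1.40 to -0.41; 1.87-fold; limma adjusted p = 0.00987). Without WT N4 replicate 1 the difference was -0.58 and no longer passed (limma adjusted p = 0.0613).

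Foxo3, the second Foxo factor of lymphocytes, measured 9.44 and 9.78 in WT non-pulsed, 8.86 and 9.61 in WT N4, 9.16 and 9.10 in PKC theta KO N4 and 9.11 and 9.33 in p50 cRel DKO N4. The 2 wild-type groups overlapped, and the difference of -0.38 (SE 0.26; 95% interval -0.96 to 0.21) did not pass (limma adjusted p = 0.284). The WT N4 arrays set this value: it was -0.75 without replicate 2, which passed (limma adjusted p = 0.0427), and it lay next to 0 without replicate 1. Foxp1, a forkhead factor that restrains naive T cells, measured 12.33 and 12.52 in WT non-pulsed, 12.15 and 12.26 in WT N4, 12.11 and 11.92 in PKC theta KO N4 and 12.56 and 12.69 in p50 cRel DKO N4. Its wild-type groups did not overlap, but the difference, -0.22 (SE 0.13; 95% interval -0.53 to 0.08), did not pass (limma adjusted p = 0.227).

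Ets1, an Ets factor needed for T cell survival and differentiation, measured 13.59 and 13.61 in WT non-pulsed, 12.59 and 13.08 in WT N4, 13.21 and 13.41 in PKC theta KO N4 and 12.81 and 12.94 in p50 cRel DKO N4. The non-pulsed arrays were the highest, the PKC theta KO N4 arrays came next, and the other 4 were lower. Ets1 fell by 0.77 in WT N4 (SE 0.17; 95% interval -1.15 to -0.38; 1.70-fold; limma adjusted p = 0.00669).

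Satb1, which organises chromatin in T cells, went the other way. It measured 12.31 and 13.04 in WT non-pulsed, 13.29 and 13.91 in WT N4, 13.53 and 13.67 in PKC theta KO N4 and 13.17 and 13.36 in p50 cRel DKO N4. Both non-pulsed arrays lay below all 6 arrays with N4, and the non-pulsed arrays were the most spread of the 4 groups. The rise was 0.92 (SE 0.26; 95% interval 0.34 to 1.51; 1.90-fold; limma adjusted p = 0.020). It was 0.56 without WT non-pulsed replicate 1 (limma adjusted p = 0.115) and 0.62 without WT N4 replicate 2 (limma adjusted p = 0.118), so the call was lost without either array.

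Bach2, a repressor that holds back effector differentiation, measured 12.10 and 12.00 in WT non-pulsed, 12.28 and 12.38 in WT N4, 12.25 and 11.62 in PKC theta KO N4 and 12.80 and 12.71 in p50 cRel DKO N4. WT N4 was above WT non-pulsed on both arrays, with a difference of 0.28 (SE 0.19; 95% interval -0.16 to 0.72) that did not pass (limma adjusted p = 0.286). In all, 7 of the 9 regulators had wild-type groups that did not overlap, and 68.4% of all genes tested did.

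The several probe sets of a gene were then read one by one, as a check of the chosen one. Of the 34 probe sets, 32 had a mean level above the filter (2, of Foxo1 and Tob1, did not), and p-values were adjusted over all 27022 probe sets kept. With N4, 13 were lower, 2 higher and 17 did not pass, where 29.4% of all probe sets passed, 17.3% as lower and 12.1% as higher. All probe sets tested passed as lower for Lef1 (2, at -1.29 and -1.15), Foxo1 (3, between -1.15 and -0.73) and Btg1 (3). The most changed was the third Btg1 probe set, 1442018_at, at 9.81 and 10.61 in WT non-pulsed, 7.24 and 8.05 in WT N4, 7.18 and 7.77 in PKC theta KO N4 and 7.84 and 8.37 in p50 cRel DKO N4. Its difference was -2.57 (SE 0.39, limma adjusted p = 0.00192), against -0.97 and -0.98 for the other Btg1 probe sets. The labels do not say what part of the transcript it reads.

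For the other regulators the probe sets were divided. Ets1 had 2 of 4 past the test as lower, and its 4 differences ran from -0.77 to -0.41. Foxp1 had 3 of 8 past the test as lower, 1435221_at at -0.70, 1438802_at at -1.40 and 1443258_at at -1.06, while the chosen probe set and 4 others ran from -0.45 to -0.07 and did not pass. Satb1 had its pair of highest-signal probe sets past the test as higher, 1416007_at at 0.92 and 1416008_at at 0.93, and the other 3 ran from -0.12 to 0.67. None of the 3 Bach2 probe sets (-0.03 to 0.39), the 3 of Foxo3 (-0.44 to -0.36) or the 1 of Tob1 passed. With the mean of a gene's kept probe sets in place of the chosen one, Satb1 (0.58, limma adjusted p = 0.266) and Ets1 (-0.54, limma adjusted p = 0.118) no longer passed and Foxp1 did (-0.54, limma adjusted p = 0.0241). Without WT N4 replicate 1 the count past the test was 7 of 32, and without WT non-pulsed replicate 2 it was 8.

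**Figure D2:**
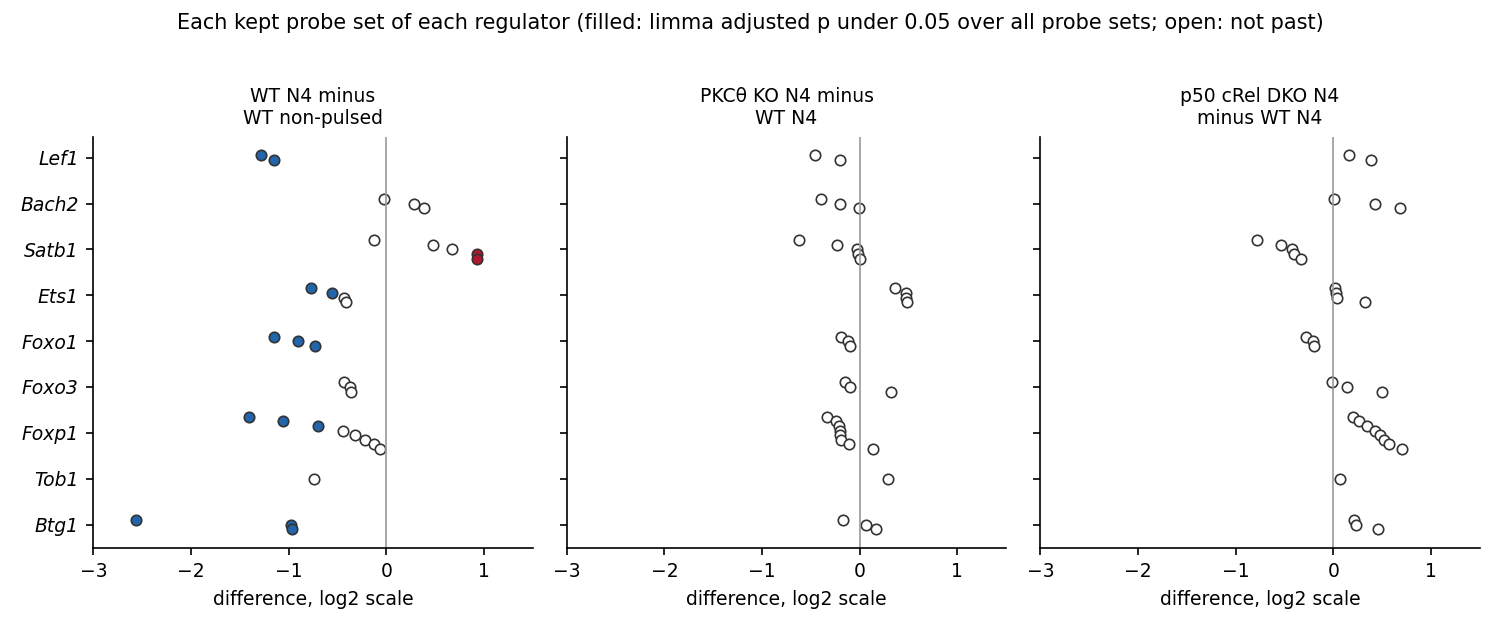
Difference of each of the 32 kept probe sets on the log2 scale in 3 comparisons, 1 row per regulator; filled points passed limma at an adjusted p under 0.05 over all probe sets (blue lower, red higher) and open points did not. With N4 15 points are filled, the Btg1 probe set at -2.57 stands farthest from 0, and in both knockout comparisons all points are open.

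The fall of the 4 genes depended on how the arrays were put on one scale. The deposited values share a trimmed mean, and on that scale the median of all genes shifted by -0.10 with N4. With quantile normalization it shifted by 0.08 and with centring on each array's median by 0.30. That array median was taken over all probe sets other than controls, including those that the filter later dropped as dim. The share of higher genes among all genes past the test was 42.3%, 52.5% and 61.1% on these scales. Relative to the shift of all genes on the deposited scale, the differences were -1.19 for Lef1, -0.87 for Btg1, -0.81 for Foxo1, -0.67 for Ets1 and 1.02 for Satb1. Quantile normalization kept the 4 falls, added Foxp1 (-0.42, limma adjusted p = 0.0473) and lost Satb1 (0.76, limma adjusted p = 0.0801). Median centring kept Satb1 (1.32, limma adjusted p = 0.00646) and lost all 4 falls: Lef1 was -0.89 (limma adjusted p = 0.0572), Btg1 -0.57, Foxo1 -0.51 and Ets1 -0.37. The 4 genes stayed negative on each scale, whereas Foxp1 (0.18) and Foxo3 (0.02), neither past the test, were positive after median centring.

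**Figure D3:**
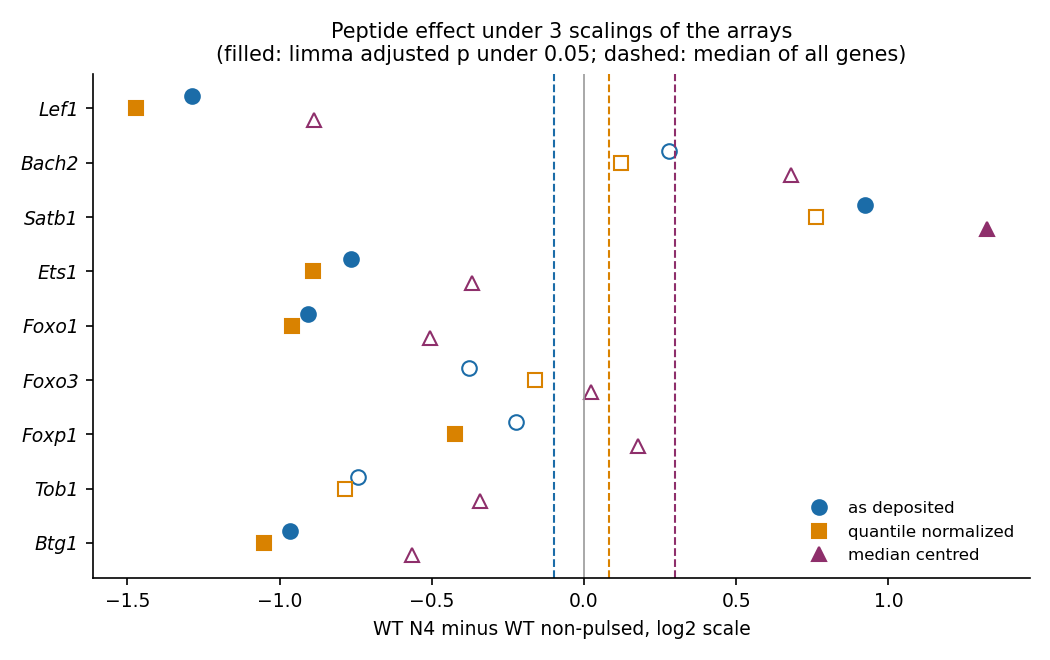
Difference between WT N4 and WT non-pulsed for each regulator, log2 scale, with the signals as deposited (circles), quantile normalized (squares) and median centred (triangles); filled symbols passed limma and dashed lines are the medians of all genes at -0.10, 0.08 and 0.30. Lef1, Btg1, Foxo1 and Ets1 lie left of 0 on the 3 scales, and after median centring only Satb1 is filled.

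Markers of other cells moved with the same comparison. The summed signal of 22 B cell markers was 78838 to 114549 in WT non-pulsed and 6331 to 14469 in WT N4, and all 22 fell. That of 32 dendritic cell and macrophage markers was 124109 to 152017 and 12128 to 21857, with 27 of the 32 lower, and that of 10 neutrophil markers 33159 to 33870 and 600 to 1977, with all 10 lower. The 6 CD4 T cell markers summed to 5758 to 6633 and 1441 to 2002 (4 lower, 1 higher). Of that CD4 T cell sum, Cxcr5 gave 1755 and 1366 in WT non-pulsed and 435 and 306 in WT N4. St8sia6 gave 2852 and 2054, and then 151 and 22.6. The 6 NK cell markers summed to 12724 to 18302 and 2178 to 3149 (2 lower, 1 higher). Most of that NK cell sum in WT non-pulsed came from Tyrobp (8862 and 5070) and Fcer1g (8588 and 5552), also in the dendritic cell and macrophage list. Of the other NK cell markers, Cd160 was 68.9 and 398 in WT non-pulsed and 825 and 880 in WT N4. Klre1, Gzma and Eomes overlapped between these groups. The 13 CD8 T cell markers summed to 45488 to 51444 in WT non-pulsed and 65246 to 70091 in WT N4 (6 higher, 1 lower). Among them Cd5 was 845 and 1956 in WT non-pulsed and 9153 and 10339 in WT N4. Skap1 went the other way, at 1766 and 2077 and then 866 and 812. No list was at 0 in any group: Cd79a of B cells was 6997 and 3476 in WT non-pulsed and 287 and 36.2 in WT N4. B cells also express Bach2, Foxp1, Foxo1, Ets1 and Btg1. The part of these cells in the differences of the regulators was not tested, and in bulk RNA fewer cells of a type and less RNA per cell cannot be told apart. Whether such cells came from the spleen or with the added bone marrow dendritic cells was not tested either.

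The genes around the regulators were counted in lists of other genes, beside all genes at 23.5% lower and 17.2% higher. Among 20 measured relatives of the regulators by family, 11 were lower, 1 higher and 8 not past the test, with a median of -0.66. Bach1 fell by 2.25, Ets2 by 1.03 and Etv3 by 1.30, and Etv6 rose by 0.65; Tcf4, an E protein that B cells and dendritic cells also make, fell by 3.49. Of 28 other regulators of quiescence and the naive state, 16 were lower and 1 higher, with a median of -0.80. Klf2, a zinc finger factor that sustains homing and quiescence, fell by 5.55 (SE 0.22, limma adjusted p = 6.28e-06). The Myc antagonist gene Mxd4 (-4.42), Bcl6 (-3.11) and Klf3 (-2.64) fell too, and Gfi1 rose by 2.16.

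Genes known to be driven by Foxo factors in lymphocytes were lower in 20 of 32 and higher in none (12 did not pass), with a median of -1.02. This list shares Klf2 and Bcl6 with the previous one, and among its other members the IL-7 receptor gene Il7r fell by 3.29 and Pik3ip1, an inhibitor of PI3K, by 4.52. Of 29 partners and targets of Tcf1 and Lef1, 13 were lower and 1 higher, with a median of -0.57. Slamf6 fell by 2.61 and Cxcr5 by 2.04, and the deacetylase gene Hdac2 rose by 0.94. The part of other cells, such as B cells, in the fall of Cxcr5 was not tested. Of 18 naive surface and homing genes, 9 were lower and 1 higher, among them the chemokine receptor gene Ccr9 (-6.23) and S1pr1, which leads T cells out of lymphoid organs (-4.12), with the costimulatory receptor gene Cd28 higher at 2.47.

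Lists around the same pathways moved less one way. Of 28 genes for PI3K and Akt steps upstream of Foxo, 9 were lower and 3 higher, with a median of -0.16; Sgk1, a kinase that phosphorylates Foxo factors, fell by 4.04. Of 21 genes of the CCR4-NOT deadenylase and poly(A) factors, with which Tob1 and Btg1 work, 3 were lower and 6 higher, with a median of 0.11. The deadenylase subunit Cnot7 rose by 0.57 and Pabpc4 by 0.68, and Ddx6 fell by 0.81 and Pan2 by 0.95; after median centring 5 of the 21 were higher and none lower, beside 18.1% and 11.5% of all genes. Of 25 effector factors, 5 were lower and 7 higher, with a median of -0.15 beside -0.10 for all genes. Tbx21, the gene of T-bet and 1 of the 7, rose by 2.61. After median centring, 15 of the 32 Foxo targets, 10 of the 28 quiescence regulators and 4 of the 20 relatives were lower, beside 11.5% of all genes.

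**Figure D4:**
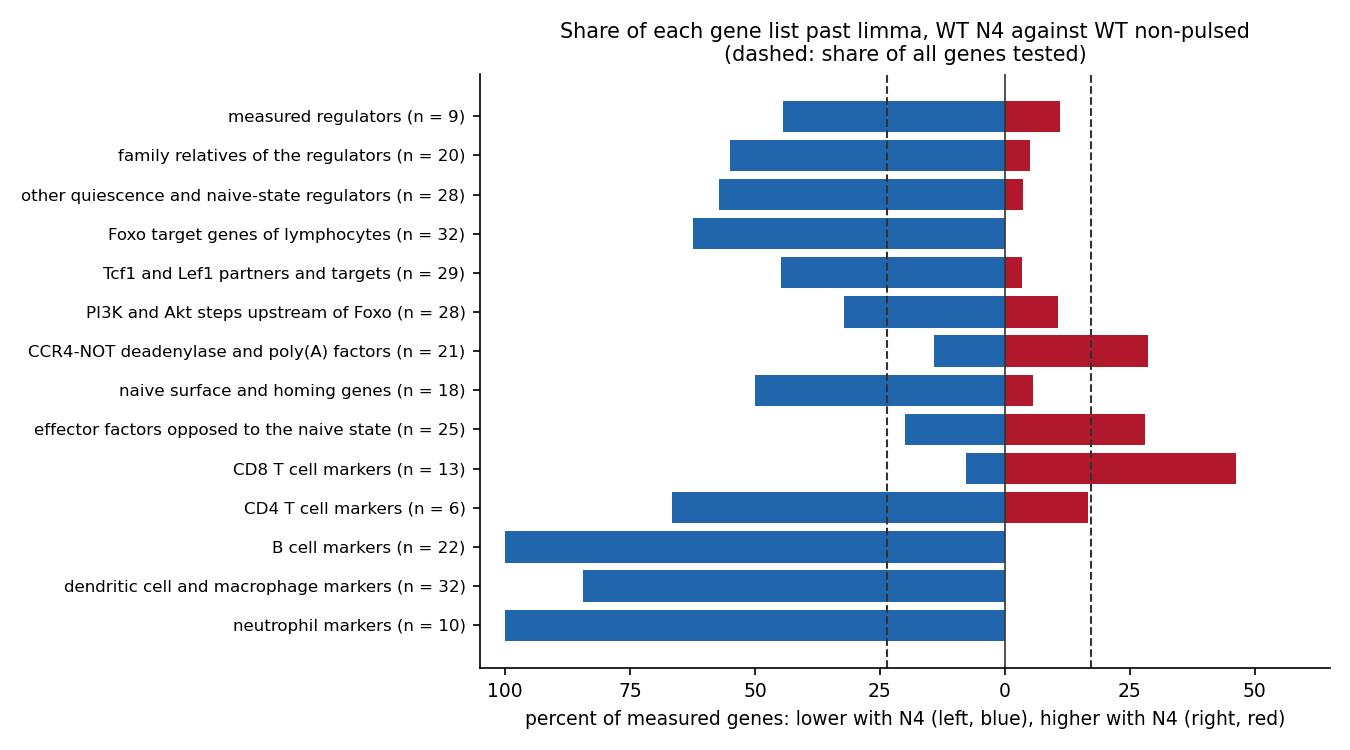
Share of the measured genes of each list past limma in WT N4 against WT non-pulsed, in percent, lower to the left in blue and higher to the right in red; n is the number of measured genes and dashed lines mark all genes tested (23.5% lower, 17.2% higher). The lists of Foxo targets, quiescence regulators and family relatives have more than 50 percent of genes lower, as do the CD4 T cell, B cell, dendritic cell and neutrophil markers.

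The next comparisons ask whether the regulators depend on PKC theta or on p50 and cRel in cells that met N4. None of the 9 passed in either knockout against WT N4, and few genes did: 0.024% of all genes passed for PKC theta KO N4 and 0.519% for p50 cRel DKO N4. At an unadjusted limma p under 0.05 there were 2 regulators (Lef1 and Ets1) for PKC theta KO N4, where 2.96% of all genes reached it, and 1 (Foxp1) for p50 cRel DKO N4, where 6.29% did. The intervals bound what could have been missed. Over the 9 genes they ran at their widest from -0.88 to 1.20 for PKC theta KO N4 and from -0.92 to 0.98 for p50 cRel DKO N4.

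In PKC theta KO N4 cells Lef1 was 0.46 below WT N4 (SE 0.18; 95% interval -0.88 to -0.04) and Ets1 0.47 above it (SE 0.17; 95% interval 0.09 to 0.86). As the values above show, the groups did not overlap for these genes, nor for Bach2 (-0.40) and Foxp1 (-0.19), which makes 4 of 9, where 25.8% of all genes had groups apart. The remaining 5 lay between -0.12 for Foxo1 and 0.29 for Tob1. All 4 Ets1 probe sets were positive (0.36 to 0.49), both Lef1 probe sets negative and 7 of the 8 Foxp1 probe sets negative. None of the 32 probe sets passed limma, 4 reached an unadjusted p under 0.05, and the shares of all probe sets were 0.0148% and 2.23%.

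In p50 cRel DKO N4 cells Foxp1 was 0.42 above WT N4 (SE 0.13; 95% interval 0.12 to 0.73; limma adjusted p = 0.401) and Bach2 also 0.42 above (SE 0.19; 95% interval -0.02 to 0.86; limma adjusted p = 0.822). For Foxp1, Bach2 and Btg1 (0.23) the groups did not overlap, 3 of 9, where 30.5% of all genes had groups apart. The other 6 lay between -0.33 for Satb1 and 0.16 for Lef1. The 8 Foxp1 probe sets were all positive, from 0.20 to 0.71, with groups apart in 6 (27.3% of all probe sets were apart). The 3 of Bach2 were positive (0.01 to 0.69), and the 5 of Satb1 were negative (-0.78 to -0.33). None of the 32 passed limma, where 0.226% of all probe sets did, and 6 reached an unadjusted p under 0.05, where 4.77% did. Probe sets of 1 gene read the same RNA and are not replicates. The summed signal of the 22 B cell markers was 6331 to 14469 in WT N4, 9906 to 17063 in PKC theta KO N4 and 14877 to 15973 in p50 cRel DKO N4, and that of the 32 dendritic cell and macrophage markers 12128 to 21857, 15915 to 17943 and 10770 to 11831. The part of these cells in the differences between genotypes was not tested.

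**Figure D5:**
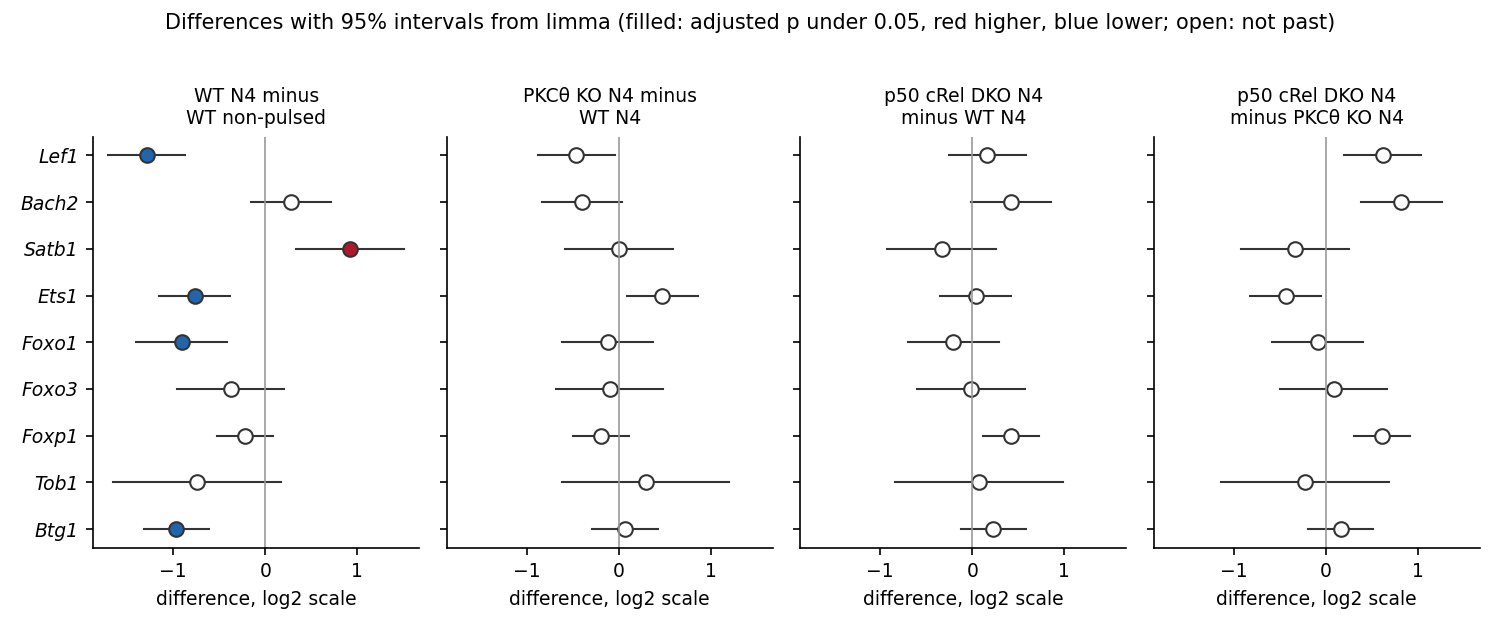
Difference of each regulator on the log2 scale with its 95% interval from limma, in 4 comparisons; filled points have an adjusted p under 0.05 (red higher, blue lower) and open points do not. In WT N4 minus WT non-pulsed 5 points are filled, and in the 3 comparisons with a knockout none is.

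The knockouts were also set against each other, which asks whether loss of the kinase and of the NF-kB subunits left the regulators at different levels. None of the 9 passed limma (0.431% of all genes did), while 4 reached an unadjusted p under 0.05 (7.16% of all genes did). Bach2 was 0.82 higher in p50 cRel DKO N4 than in PKC theta KO N4 (SE 0.19; 95% interval 0.38 to 1.26; limma adjusted p = 0.191), Lef1 0.62 higher (SE 0.18; 95% interval 0.20 to 1.04; limma adjusted p = 0.393) and Foxp1 0.61 higher (SE 0.13; 95% interval 0.31 to 0.92; limma adjusted p = 0.142). Ets1 was 0.44 lower (SE 0.17; 95% interval -0.82 to -0.05; limma adjusted p = 0.618). For these 4 and Satb1 (-0.33) the groups did not overlap, 5 of 9, where 33.9% of all genes had groups apart. Bach2 passed without PKC theta KO N4 replicate 1 (1.14, limma adjusted p = 0.0465) and was 0.51 without replicate 2 of that group, which did not; these arrays were 12.25 and 11.62. The 8 Foxp1 probe sets were all positive (0.21 to 0.82), 7 with groups apart (31.7% of all probe sets were) and 6 at an unadjusted p under 0.05. Over the 32 probe sets 11 reached it, where 5.2% of all did, and none passed limma, where 0.13% did.

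Set against WT non-pulsed cells, each knockout with N4 had 4 of 9 regulators lower and 1 higher. Of all genes, 24.0% were lower and 16.5% higher in PKC theta KO N4, and 22.8% and 16.5% in p50 cRel DKO N4. These comparisons share the non-pulsed arrays with the wild-type one, so the values are only given side by side. Lef1 was lower by 1.29 in WT N4, 1.75 in PKC theta KO N4 and 1.13 in p50 cRel DKO N4, Btg1 by 0.97, 0.90 and 0.73, and Foxo1 by 0.91, 1.02 and 1.11. All 9 of these differences, of the chosen probe sets, passed limma on the deposited scale. After median centring 8 of the 9 did not: Lef1 in PKC theta KO N4 passed (-1.34, limma adjusted p = 0.00997), and the knockout values that did not were -0.73 for Lef1 in p50 cRel DKO N4, -0.49 and -0.34 for Btg1 and -0.62 and -0.72 for Foxo1. On the deposited scale the other Lef1 probe set, 1421299_a_at, was -0.77 in p50 cRel DKO N4 and did not pass (limma adjusted p = 0.117). All other kept probe sets of Lef1, Btg1 and Foxo1 passed as lower in both knockouts. Ets1 was lower by 0.77, 0.29 and 0.73, of which that of PKC theta KO N4 did not pass (limma adjusted p = 0.206); after median centring none passed, and that of PKC theta KO N4 was 0.12. Satb1 was higher by 0.92, 0.93 and 0.59, of which that of p50 cRel DKO N4 did not pass (limma adjusted p = 0.103). Foxp1 passed as lower in PKC theta KO N4 alone (-0.41, limma adjusted p = 0.0373) and Bach2 as higher in p50 cRel DKO N4 alone (0.70, limma adjusted p = 0.0186), and whether these shifts differ between genotypes is what the direct comparisons above test.

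These calls were not equally firm. The Bach2 call was kept after median centring (1.09, limma adjusted p = 0.0393) and lost without any 1 of the WT non-pulsed or p50 cRel DKO N4 arrays (0.65 to 0.75), and the Foxp1 call was lost without any 1 array other than WT non-pulsed replicate 1 (-0.51 to -0.31). After median centring the Foxp1 difference was 0.00 (limma adjusted p = 0.997), and its call was also lost with no filter, no mean-variance trend or only the 2 groups compared (limma adjusted p = 0.0529, 0.0907 and 0.0866). The Satb1 call in PKC theta KO N4 was lost without WT non-pulsed replicate 1 (0.56) or either PKC theta KO N4 array (0.99 and 0.86). It was also lost with quantile normalization (0.68, limma adjusted p = 0.116) and with the mean of a gene's probe sets (0.39, limma adjusted p = 0.453). In p50 cRel DKO N4, Satb1 passed without WT non-pulsed replicate 2 (0.96) and after median centring (0.98, limma adjusted p = 0.0286). The Ets1 call in p50 cRel DKO N4 was lost without replicate 1 of that group (-0.66). It was also lost with the mean of a gene's probe sets (-0.44, limma adjusted p = 0.200). Foxo3 and Tob1 did not pass in either knockout in this fit, in which the replicate number has no part.

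By group mean, Lef1 ran from WT non-pulsed (12.35 ± 0.12, SD, n = 2) through p50 cRel DKO N4 (11.22 ± 0.21) and WT N4 (11.06 ± 0.16) to PKC theta KO N4 (10.60 ± 0.29), and the arrays of the middle pair overlapped. Bach2 ran from p50 cRel DKO N4 (12.76 ± 0.06) through WT N4 (12.33 ± 0.07) and WT non-pulsed (12.05 ± 0.07) to PKC theta KO N4 (11.93 ± 0.45), of which the last pair overlapped. Foxp1 ran from p50 cRel DKO N4 (12.63 ± 0.09) through WT non-pulsed (12.43 ± 0.13) and WT N4 (12.20 ± 0.08) to PKC theta KO N4 (12.02 ± 0.14), with no overlap between neighbours. Ets1 ran from WT non-pulsed (13.60 ± 0.02) through PKC theta KO N4 (13.31 ± 0.14) to p50 cRel DKO N4 (12.87 ± 0.09) and WT N4 (12.83 ± 0.35), of which the last pair overlapped. For Btg1, Foxo1, Foxo3, Tob1 and Satb1 the means of the 3 N4 groups lay closer together, the widest gap being that of Satb1 between the knockouts (-0.33).

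The lists of related genes held few calls between genotypes. In p50 cRel DKO N4 against WT N4 the Foxo target Klf2 was higher by 1.77 (SE 0.22, limma adjusted p = 0.0129): it was 12.71 and 12.36 in WT non-pulsed, 6.90 and 7.07 in WT N4, 8.15 and 8.38 in PKC theta KO N4 and 8.96 and 8.54 in p50 cRel DKO N4. Both knockouts were above WT N4 on every array and far below WT non-pulsed, and the difference of 1.28 for PKC theta KO N4 did not pass (limma adjusted p = 0.252). Ccr9 was higher by 2.19 (limma adjusted p = 0.0375) and the effector factor Bhlhe40 lower by 1.26 (limma adjusted p = 0.0206). Between the knockouts, Il7r was higher by 1.12 in p50 cRel DKO N4 (limma adjusted p = 0.0339), and Cxcr5 (-2.07, limma adjusted p = 0.0148) and Bhlhe40 (-1.07, limma adjusted p = 0.0453) were lower. Cxcr5 is also 1 of the 6 CD4 T cell markers and so is part of their summed signal. That sum was 702 to 710 in p50 cRel DKO N4, 1859 to 2069 in PKC theta KO N4 and 1441 to 2002 in WT N4. Between the knockouts, Ikzf2, Zbtb7b and Cd40lg of this list were also lower in p50 cRel DKO N4 on both arrays, and Gata3 and St8sia6 overlapped. Cd4 and Foxp3 were not among the markers measured. The part of CD4 T cells, or of B cells, in the Cxcr5 difference and the other differences between genotypes was not tested. After median centring the Klf2 difference from WT N4 was 1.76 and did not pass (limma adjusted p = 0.0558). The Klf2 call was also lost without WT N4 replicate 1 and without either p50 cRel DKO N4 array, with a difference of 1.55 to 1.98. Those of Ccr9, Bhlhe40, Il7r and Cxcr5 were also lost without either p50 cRel DKO N4 array.

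The genes most like each regulator were found by the root mean square difference between profiles centred over the 8 arrays, on the log2 scale. Nearest to Lef1 were Gse1 (0.08), Vps13d (0.12) and Rfesd (0.13), and nearest to Btg1 were Gripap1 (0.06), Rnf216 (0.07) and Mtmr14 (0.07). Tmem167b (0.09) was nearest to Foxo1, Atl3 (0.12) to Satb1, Clasp1 (0.10) to Bach2, Mgat2 (0.09) to Foxp1, 4930481B07Rik (0.08) to Ets1, Gm4432 (0.07) to Foxo3 and Slc25a40 (0.09) to Tob1. Among the regulators themselves the closest pair was Bach2 and Foxp1 (0.25), followed by Ets1 and Foxo3 (0.27) and Foxo1 and Ets1 (0.28), and Satb1 was farthest from its nearest, Foxo3 (0.57). For scale, the root mean square of a profile around its own mean was 0.24 for Foxp1 and 0.28 for Foxo3. It was 0.36 for Bach2, 0.35 for Ets1, 0.48 for Foxo1 and 0.45 for Satb1. Foxp1 was thus no nearer to Bach2 than to a flat profile, and Satb1 no nearer to Foxo3. Gene profiles on 8 shared arrays are not independent of one another, and the measure is a description.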

How the data were processed

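Expression was measured on 8 one-colour Affymetrix arrays from 100 ng of total RNA each, and groups were read from the sample titles, where a title without a replicate number was taken as replicate 1. The deposited values are intensity values, 1 linear signal per probe set, and the submitters' processing notes name GCOS 1.4 and MAS5. The arrays share a trimmed mean, so the authors' values had been scaled globally, and an RNA content that changes with stimulation is lost in that step. Of 45101 probe sets, 64 controls were left out. The platform annotation gave 34945 probe sets 1 symbol and 932 several, which were not named, and 9160 are not in that table. Symbols were updated by Entrez identifier through RefSeq genes of GRCm38.p6 for 34741 probe sets.

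Signals were transformed as log2(signal + 16), so changes of dim genes are understated. Probe sets with a mean under the 40th percentile (5.38) were dropped, which kept 27022, and the probe set with the highest mean stood for each of 12520 genes. One linear model with a term per group was fitted to all 8 arrays with limma 3.58.1 in R 4.3.3 (lmFit; eBayes with its trend option; 4 residual degrees of freedom; Benjamini-Hochberg adjustment), at the gene level and again over all kept probe sets; it was tested on simulated data. Intervals are 95%. The alternatives were other offsets of 1 and 64, no filter or a 60th percentile filter, quantile normalization, median centring, no trend, only the groups compared, a replicate block, the mean of a gene's probe sets, and leaving out each array.

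The regulators and the gene lists were chosen with earlier results of these data known. Named are all regulators and their probe sets, Rel and Prkcq, up to 4 genes of each list with the lowest p in WT N4 against WT non-pulsed and up to 2 in each comparison with a knockout, and the 3 genes nearest to each regulator by profile. Outside this rule, Hdac2 and Cd28 were named as the only gene of their list that passed as higher in WT N4 against WT non-pulsed. Marker genes of other cells, Cd3d, Cd8b1, Cd79a and Xist were named as checks of the cells and labels. Detection calls were not used here. A further probe set annotated to Foxo3 and another gene was not named.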

Additional observations from a re-analysis of the deposited data

How the results depend on the processing

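The offset, the filter, the mean-variance trend and a fit of only the groups compared left the count of regulators past the test within 1.5 times of its value in each comparison. After median centring the count fell from 5 to 1 in WT N4 against WT non-pulsed, and to 2 in either knockout against WT non-pulsed; the count of probe sets fell from 15 to 4, from 13 to 7 (PKC theta KO N4) and from 11 to 6 (p50 cRel DKO N4). With each array left out in turn, the count of regulators ranged from 4 to 5 in WT N4 against WT non-pulsed, 3 to 4 (PKC theta KO N4) and 3 to 5 (p50 cRel DKO N4) against WT non-pulsed and 0 to 1 between the knockouts, and that of probe sets from 7 to 15, 9 to 13 and 4 to 12. The lowest count of probe sets, 4, came without p50 cRel DKO N4 replicate 1, and 6 came without WT non-pulsed replicate 1.

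Over all genes, PKC theta KO N4 against WT N4 gave 3 genes; this was 1 with an offset of 1 or no filter, 0 with quantile normalization or no trend, and 0 to 5 with arrays left out. p50 cRel DKO N4 against WT N4 gave 65, with 36 after median centring, 35 without the trend and 13 to 77 with arrays left out. The knockouts against each other gave 54, with 28 without the filter, 17 without the trend, 98 with only the groups compared and 0 to 65 with arrays left out. p50 cRel DKO N4 against WT non-pulsed gave 4917, and 3229 to 4987 with arrays left out. The cause was not tested.

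The arrays share only a replicate number. Deviations of same-numbered arrays from their group means correlated at 0.255 to 0.579 across 12520 genes, a hint from the data and not from the design. With the replicate block, 1 regulator (Foxp1, limma adjusted p = 0.0459) passed between the knockouts and Tob1 passed in WT N4 against WT non-pulsed (-0.74, limma adjusted p = 0.00470). Against WT non-pulsed, Tob1 also passed in PKC theta KO N4 (-0.45, limma adjusted p = 0.0435) and p50 cRel DKO N4 (-0.67, limma adjusted p = 0.00782), and Satb1 in p50 cRel DKO N4 (0.59, limma adjusted p = 0.00994). Further, 18 probe sets passed in p50 cRel DKO N4 against WT non-pulsed, and over all genes 200 passed in p50 cRel DKO N4 against WT N4 and 152 between the knockouts. With 2 arrays a group, the widest 95% interval of a regulator, that of Tob1, reached 0.911 to either side of its difference on the log2 scale.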
